A study of Mus musculus with 13 samples.

Results

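The genes described here encode subunits of the phagocyte NADPH oxidase: Cybb, Cyba, Ncf1, Ncf4 and Rac2. They were taken as the columns of those exact names in the deposited expression table, 5 of its 20971 genes. The list of members was chosen with earlier results of these data known. The study profiled RNA from the cortex of 6-month-old C57BL/6 mice by sequencing and compared 6 APPPS1 mice with 7 APPPS1;Apoe-/- mice. The series' design text names the line as APPPS1-21. All 13 mice carry the APPPS1 transgenes, which as background express mutant human proteins of the amyloid pathway in neurons from a Thy1 promoter, and no group without them was analysed here. The comparison therefore asks how deletion of Apoe, the gene of the main lipoprotein of the brain, relates to oxidase transcripts in a cortex with amyloid.

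As background, the phagocyte oxidase moves electrons from NADPH across a membrane onto oxygen and so makes superoxide. Cybb (NOX2, gp91phox) is the catalytic subunit and Cyba (p22phox) its membrane partner, and each protein is stabilised by the other. In a resting cell cytosolic proteins, among them Ncf1 (p47phox) and Ncf4 (p40phox), wait apart from the membrane, and assembly with a Rac GTPase, Rac2 in most blood phagocytes, switches the enzyme on. In brain tissue the complex is best known from microglia, the resident macrophages.

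The members lie on 4 chromosomes of the mouse mm10 assembly by GENCODE vM21 gene bounds. Cybb is at chrX:9435252-9487771 on the minus strand, Cyba at chr8:122424776-122432930 on the minus strand, and Ncf1 at chr5:134220053-134229625 on the minus strand. Ncf4, at chr15:78244801-78262580 on the plus strand, and Rac2, at chr15:78559167-78572783 on the minus strand, share a chromosome. Cyba is overlapped on the opposite strand by the gene model Gm20388, and Ncf1 by Gtf2ird2, a gene of the TFII-I family. Whether strand was used in counting is not given in the sources used here, so reads from any shared bases cannot be told apart. The overlap is one of gene bounds, and whether exons overlap was not examined.

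RefSeq promoter entries (GRCm38.p6) matched 3 of the 5 members. The 250 bases before the RefSeq start of each are shown because these members cover both sides of the comparison below: Cybb and Cyba were called lower and Ncf1 was not. Capitals mark matches to GAAANNGAA, an interferon-response type of motif, read on both strands, which 7.13% of 32851 promoter windows of the same length hold. Cybb, chrX:9469325-9469574, minus strand, and Cyba, chr8:122432941-122433190, minus strand, are followed by Ncf1, chr5:134229626-134229875, minus strand.
Cybb: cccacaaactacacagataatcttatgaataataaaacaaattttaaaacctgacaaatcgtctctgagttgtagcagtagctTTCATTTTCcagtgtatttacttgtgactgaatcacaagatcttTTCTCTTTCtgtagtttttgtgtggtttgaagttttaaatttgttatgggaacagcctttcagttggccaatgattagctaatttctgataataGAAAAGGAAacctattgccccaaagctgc
Cyba: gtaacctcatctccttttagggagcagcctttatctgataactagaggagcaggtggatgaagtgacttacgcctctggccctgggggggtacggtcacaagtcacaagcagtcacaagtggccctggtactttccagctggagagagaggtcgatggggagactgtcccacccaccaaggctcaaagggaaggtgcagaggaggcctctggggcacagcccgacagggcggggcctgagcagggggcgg
Ncf1: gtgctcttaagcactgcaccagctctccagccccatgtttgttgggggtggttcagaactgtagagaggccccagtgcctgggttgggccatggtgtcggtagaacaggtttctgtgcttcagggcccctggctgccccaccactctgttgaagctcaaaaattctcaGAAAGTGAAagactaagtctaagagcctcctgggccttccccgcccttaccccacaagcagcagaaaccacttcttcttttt
The Cybb window held 3 such matches, the Ncf1 window 1 and the Cyba window 0. Neither the exact letters GAGGAAG, a PU.1-type sequence held by 10.6% of windows, nor GGAANNGAA, an Ets-IRF composite type held by 6.99%, was matched in any of the 3, on either strand. Looser PU.1-type or Ets-type sites were not searched for, so their absence is not shown. GGAANNGAA can overlap both other motifs where their letters coincide. The Cybb window was 34.0% G or C, that of Cyba 60.0% and that of Ncf1 54.4%. The Cybb window lies within the GENCODE bounds given above, so it precedes a different transcript start from the outermost one. These matches describe letters only and show no binding.

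The 13 libraries held 18455493 to 77005806 alignments, with 28402328 to 77005806 in APPPS1 and 18455493 to 34538031 in APPPS1;Apoe-/- (medians 36603694 and 26984419). The ranges overlapped only in part. Knockout replicates 1, 2, 5, 6 and 7, with 18455493 to 27336813 alignments, lay below every APPPS1 library. Depth and genotype therefore cannot be fully told apart. Apoe itself measured 463 to 670 RPKM (reads normalised to transcript length and to the size of the library) in APPPS1 and 4.01 to 6.35 in APPPS1;Apoe-/-, in accord with all 13 labels. APPPS1;Apoe-/- replicates 2 and 5 stood apart: their App level was 106 and 116 RPKM, against 176 to 217 in the other 11 libraries, and Thy1 was low in them too, down to 52.2 RPKM. The main results of the members are therefore given with and without these 2 libraries. For most other genes the text gives values of all 13 libraries only. The labels name no separate cultures, litters or days, and replicate numbers serve here only as names.

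The catalytic subunit showed the largest relative difference of the 5 members by the ratio of group means. Cybb ranged from 0.746 to 1.18 RPKM in APPPS1 (median 1.05) and from 0.077 to 0.578 RPKM in APPPS1;Apoe-/- (median 0.385). All 7 knockout libraries lay below all 6 APPPS1 libraries. The means were 1.001 ± 0.159 RPKM (SD, n = 6) and 0.351 ± 0.172 (SD, n = 7), so the knockout mean was 35.1% of the APPPS1 mean. On the log2(RPKM + 0.5) scale, where the added 0.5 shrinks the change of a gene this low, Cybb fell by 0.84 (SE 0.13, limma adjusted p = 0.00112, Benjamini-Hochberg over 13343 genes tested). With 1 added instead, the change was -0.57 for Cybb and -0.62 for Cyba, so which of them is larger follows the added constant. With nothing added the difference of mean log2 RPKM of Cybb was -1.72, and -1.31 without the 2 low-App libraries. Leaving those libraries out of the limma fit gave -0.71 (adjusted p = 0.00196), with a knockout mean of 0.420 ± 0.137 RPKM (SD, n = 5).

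Few reads stand behind the Cybb values in APPPS1;Apoe-/-. RPKM multiplied by the length of all annotated exons and by the number of alignments gives a rough read number, rough because the transcript length used by the authors is not given. By that estimate APPPS1 libraries held 175 to 334 Cybb reads and knockout libraries 8 to 103, the 8 being in APPPS1;Apoe-/- replicate 5. Ncf4 was also low by this estimate, with 108 to 274 reads in APPPS1 and 32 to 141 in APPPS1;Apoe-/-. The estimates for Cyba were 1154 to 3084 and 380 to 1145 reads, so its values are far less limited by counting.

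Cyba, the membrane partner, was the most abundant member per length. It ranged from 37.5 to 43.5 RPKM in APPPS1 (median 38.8) and from 15.5 to 36.0 RPKM in APPPS1;Apoe-/- (median 28.0). Again all 7 knockout libraries were below all 6 APPPS1 libraries. The mean went from 39.4 ± 2.12 RPKM (SD, n = 6) to 26.1 ± 6.79 (SD, n = 7), 66.2% of the APPPS1 mean, and the log2 change was -0.63 (SE 0.14, limma adjusted p = 0.0124). APPPS1;Apoe-/- replicates 2 and 5 were the lowest with 15.5 and 19.8 RPKM. Without them the knockout mean was 29.4 ± 4.16 RPKM (SD, n = 5) and the log2 change was -0.42 (limma adjusted p = 0.00607). When depth (log2 of the alignments) entered the fit as a covariate, the Cyba change was -0.56 and no longer passed (limma adjusted p = 0.130). Cybb stayed called in that fit at -0.82 (limma adjusted p = 0.0304). With that covariate and without the low-App libraries, a setting chosen after seeing the data, both were called. Cybb was -0.80 there (limma adjusted p = 0.00743) and Cyba -0.43 (limma adjusted p = 0.0411).

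Of the 5 members, 2 passed the test as lower (Cybb and Cyba) and 0 as higher, while 4.74% of all genes tested were called lower and 3.48% higher. Members whose knockout libraries all lay below every APPPS1 library also numbered 2, against 2.17% of all genes tested. Without the low-App libraries the count was 2 of 5 with a background of 3.30%, and with the alignments covariate it was 1 of 5 with a background of 0.989%. These shares are descriptions, because the members were chosen with earlier results of these data known. The median log2 change was -0.35 over the members and -0.01 over all genes tested, and without the low-App libraries -0.17 and -0.01. In bulk cortex, fewer cells of a type and less RNA per cell cannot be told apart.

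**Figure D1:**
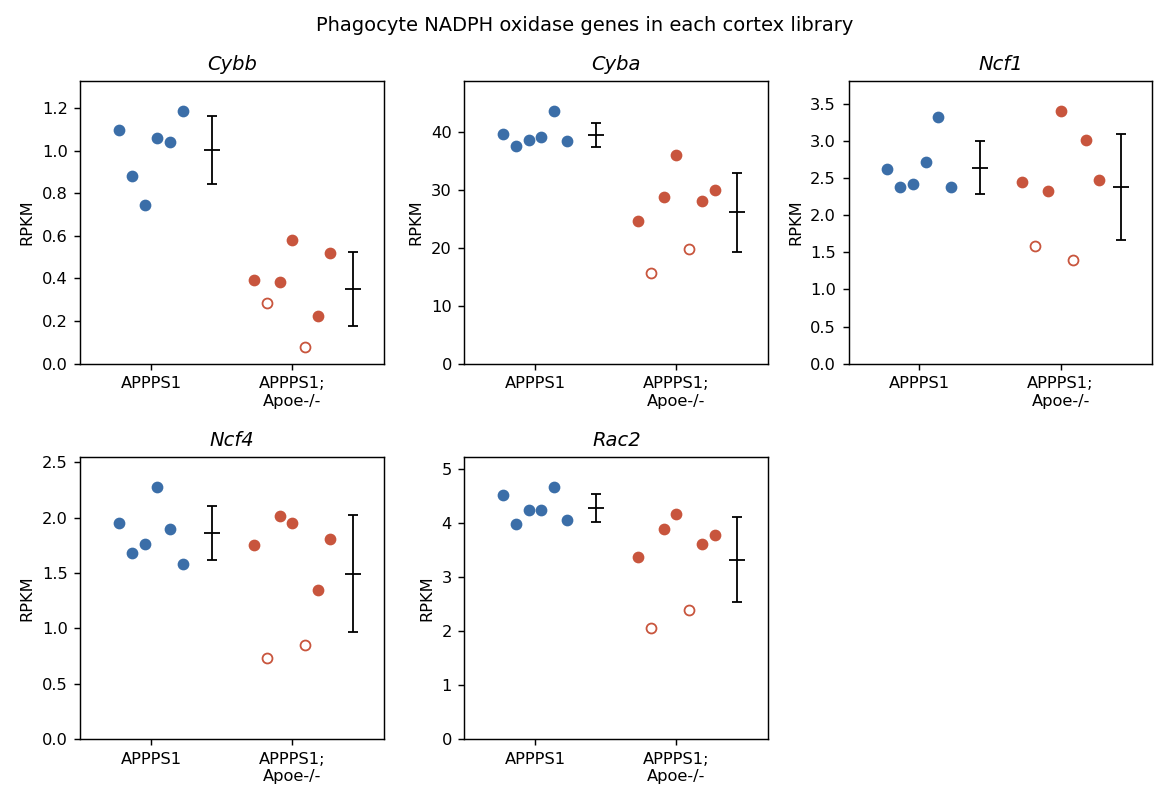
RPKM of the 5 members in each library of APPPS1 (blue, n = 6) and APPPS1;Apoe-/- (red, n = 7); open circles are the 2 low-App libraries, and bars show the mean and SD. For Cybb and Cyba every red point lies below every blue one, while for Ncf1 and Ncf4 the filled points share a range.

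The organiser subunit Ncf1, which carries the cytosolic proteins to the membrane, ranged from 2.38 to 3.32 RPKM in APPPS1 (median 2.52). In APPPS1;Apoe-/- it ranged from 1.40 to 3.40 RPKM (median 2.44), and the groups overlapped. Both the lowest values, 1.58 and 1.40 RPKM in replicates 2 and 5, and the highest value of all 13, 3.40 RPKM in replicate 4, were knockout libraries. The means were 2.64 ± 0.361 RPKM (SD, n = 6) and 2.37 ± 0.712 (SD, n = 7). The log2 change of -0.16 (95% interval -0.46 to 0.14) did not pass the test (limma adjusted p = 0.526). Without the low-App libraries it was 0.04 (95% interval -0.17 to 0.25, adjusted p = 0.877), so its sign depends on them.

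Ncf4, which binds a membrane phosphoinositide and supports the oxidase at phagosomes, ranged from 1.59 to 2.28 RPKM in APPPS1 (median 1.83) and from 0.732 to 2.02 RPKM in APPPS1;Apoe-/- (median 1.75). The 2 low-App libraries had 0.732 and 0.853 RPKM and the other 5 knockout libraries had 1.35 to 2.02. The means were 1.86 ± 0.245 RPKM (SD, n = 6) and 1.49 ± 0.526 (SD, n = 7), and the log2 change was -0.29 (95% interval -0.62 to 0.05, limma adjusted p = 0.281). It was -0.05 (limma adjusted p = 0.793) without the low-App libraries.

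Rac2, the Rac GTPase among the 5 members, was between these patterns. It ranged from 3.99 to 4.67 RPKM in APPPS1 (median 4.25) and from 2.07 to 4.17 RPKM in APPPS1;Apoe-/- (median 3.62). In the knockout group 6 of 7 libraries were below every APPPS1 library, and replicate 4, at 4.17 RPKM, lay within the APPPS1 range. The means were 4.29 ± 0.262 RPKM (SD, n = 6) and 3.33 ± 0.791 (SD, n = 7), and the log2 change of -0.35 (95% interval -0.61 to -0.09) did not pass after adjustment (limma adjusted p = 0.0851). Leaving out replicate 4 brought it past the threshold at -0.40 (limma adjusted p = 0.0413), and leaving out both low-App libraries gave -0.17 (adjusted p = 0.143).

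Among the other genes of the oxidase family, 12 of 13 listed had a column and 3 reached the mean of 0.5 RPKM needed for the test. Of these 3, 2 were lower and 0 higher, against 4.74% lower and 3.48% higher over all genes tested. Hvcn1, the proton channel that carries away the charge left by the oxidase, went from 2.99 ± 0.603 RPKM (SD, n = 6) to 1.82 ± 0.534 (SD, n = 7), a log2 change of -0.61 (limma adjusted p = 0.0227). Rac3, a Rac GTPase abundant in neurons, changed by -0.54 (limma adjusted p = 0.0163), and Rac1, the broadly expressed GTPase, stayed at 44.0 ± 1.42 and 44.6 ± 3.12 RPKM (log2 change 0.02, 95% interval -0.09 to 0.12, limma adjusted p = 0.866). With the alignments covariate neither passed, with Hvcn1 at -0.44 (limma adjusted p = 0.247) and Rac3 at -0.62 (limma adjusted p = 0.0734). The alternative catalytic subunits and their partners, Nox1, Nox3, Nox4, Noxa1, Noxo1, Duox1, Duox2, Duoxa1 and Duoxa2, were under 1 RPKM in all libraries. Noxo1 was the highest of these 9, with group means of 0.460 and 0.403 RPKM, and Nox4 averaged 0.035 and 0.019 RPKM.

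**Figure D2:**
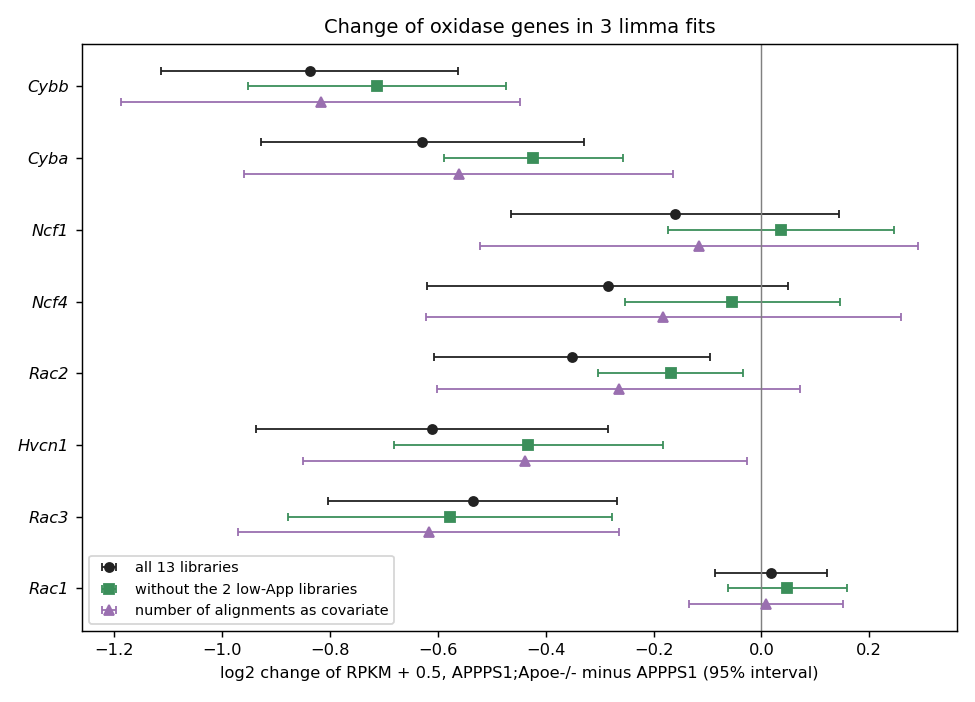
Log2 change of RPKM + 0.5 (APPPS1;Apoe-/- minus APPPS1) with its 95% interval for the 5 members and 3 other oxidase genes, in limma fits of all 13 libraries (circles), without the 2 low-App libraries (squares) and with the number of alignments as a covariate (triangles). Cybb, Cyba, Hvcn1 and Rac3 stay below 0 in each fit, and Ncf1 moves from -0.16 to 0.04 without the low-App libraries.

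Levels can be ordered per length. In the APPPS1 cortex the order of mean RPKM was Cyba (39.4), Rac2 (4.29), Ncf1 (2.64), Ncf4 (1.86) and Cybb (1.001). Each neighbouring pair in this order differed by more than the SD of either gene. In APPPS1;Apoe-/- the order was Cyba (26.1), Rac2 (3.33), Ncf1 (2.37), Ncf4 (1.49) and Cybb (0.351), with SDs of 0.712 RPKM for Ncf1 and 0.526 for Ncf4. Cybb was the lowest, and Cyba the highest, of the 5 members in all 13 libraries, and Ncf1 was above Ncf4 in all 13.

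The proportions between subunits differed between the genotypes. Per library, Cyba was 32.3 to 51.7 times the RPKM of Cybb in APPPS1 (median 39.3) and 54.5 to 258 times in APPPS1;Apoe-/- (median 62.9), with no overlap. The ratio of 258 belongs to APPPS1;Apoe-/- replicate 5, with about 8 Cybb reads, and without the low-App libraries the knockout range was 57.7 to 125. On log2(RPKM + 0.5) the change of Cybb minus that of Cyba was -0.21 (exact permutation p = 0.160, two-sided, adjusted p = 0.200 over the 10 pairs of members). Without the low-App libraries it was -0.29 and passed (exact permutation, adjusted p = 0.0309). This value follows the added constant: with no constant, an alternative chosen after seeing the data, it was -1.08 (exact permutation, adjusted p = 0.0035), and with 1 added it was 0.05 (exact permutation, adjusted p = 0.806).

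Both membrane subunits fell further than the other 3 members. Ncf1 was 2.01 to 3.25 times the RPKM of Cybb in APPPS1 and 4.76 to 18.2 times in APPPS1;Apoe-/-, again with no overlap. The change of Cybb minus that of Ncf1 was -0.68 (exact permutation, adjusted p = 0.00389) and that of Cybb minus Ncf4 was -0.55 (exact permutation, adjusted p = 0.00728). That of Cybb minus Rac2 was -0.49 (exact permutation, adjusted p = 0.00816). Cyba was 13.1 to 16.1 times the RPKM of Ncf1 in APPPS1 and 9.30 to 14.1 times in APPPS1;Apoe-/-, ranges that overlap. The change of Cyba minus that of Ncf1 was -0.47, and minus that of Rac2 -0.28 (exact permutation, adjusted p = 0.00389 for each), and minus that of Ncf4 -0.34 (exact permutation, adjusted p = 0.00874). All of these were below 0 without the low-App libraries as well, and each passed there too (exact permutation, adjusted p from 0.00541 to 0.0144). With no added constant the Cyba minus Ncf4 difference was -0.24 and did not pass (exact permutation, adjusted p = 0.130).

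The 3 pairs among Ncf1, Ncf4 and Rac2 gave no difference past the threshold. Ncf1 was 1.19 to 1.75 times the RPKM of Ncf4 in APPPS1 and 1.15 to 2.22 times in APPPS1;Apoe-/-, and the change of Ncf1 minus that of Ncf4 was 0.12 (exact permutation, adjusted p = 0.366). For Ncf1 minus Rac2 it was 0.19, above the APPPS1 mean in 6 of 7 knockout libraries (exact permutation, adjusted p = 0.0533), and for Ncf4 minus Rac2 it was 0.07 (exact permutation, adjusted p = 0.399).

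**Figure D3:**
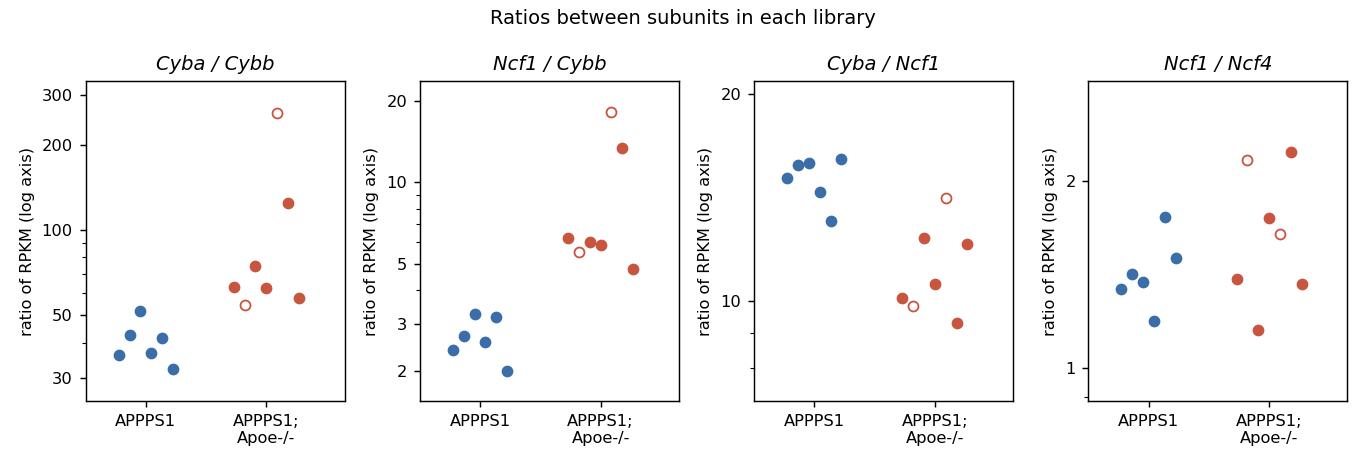
Ratios of RPKM between pairs of subunits in each library, on log axes, for APPPS1 (blue, n = 6) and APPPS1;Apoe-/- (red, n = 7; open circles are the 2 low-App libraries). Cyba to Cybb and Ncf1 to Cybb are higher in every knockout library than in any APPPS1 library, and Ncf1 to Ncf4 shares a range between the groups.

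Microglia markers moved with these results. Of 17 markers tested, 13 were called lower and 0 higher, against 4.74% lower and 3.48% higher over all genes tested. The median log2 change of the markers was -0.61, or -0.35 without the low-App libraries. With the alignments covariate 1 marker was called lower, against 0.989% of all genes tested. The summed level of the markers was 932 to 1111 RPKM in APPPS1 and 408 to 808 in APPPS1;Apoe-/-. Irf8, a transcription factor of microglia, fell most, by 0.89 (limma adjusted p = 0.000134). Tmem119, a homeostatic surface marker, was at 6.33 and 6.04 RPKM (log2 change -0.08, limma adjusted p = 0.776). In a fit with the mean log2 marker level as a covariate, 0 members were called: the change of Cybb was -0.50 (limma adjusted p = 0.216) and that of Cyba -0.009 (limma adjusted p = 0.980). That covariate differs between the genotypes itself, so marker level and genotype cannot be fully told apart.

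Set against the mean log2 level of those markers in the same library, the members separated. The difference between genotypes was -0.06 for Cyba (exact permutation p = 0.364). Cybb was lower than the markers by a margin that did not pass in all libraries, -0.27 (exact permutation p = 0.0524), and was -0.33 without the low-App libraries (exact permutation p = 0.0195). With no added constant, and Spi1 left out because it is 0 in 1 library, an alternative chosen after seeing the data, the Cybb difference was -1.10 (exact permutation p = 0.00233). It was -0.039 with 1 added (exact permutation p = 0.733), -0.18 against the markers without homeostatic surface genes (exact permutation p = 0.195) and -0.17 against the marker median (exact permutation p = 0.337), so its size and its call rest on these choices. These are 5 two-sided tests with unadjusted p-values.

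Relative to the marker mean, Ncf1 and Rac2 were higher in every knockout library than in any APPPS1 library. The difference was 0.41 for Ncf1 (exact permutation p = 0.000583, the smallest that 1716 splits can give) and 0.22 for Rac2 (exact permutation p = 0.00117). Ncf4 differed by 0.28, with 6 of 7 knockout libraries above the APPPS1 mean (exact permutation p = 0.0152), but by 0.22 with no added constant (exact permutation p = 0.132). Without the low-App libraries the differences were 0.42, 0.21 and 0.33 for Ncf1, Rac2 and Ncf4 (exact permutation p = 0.00216, 0.00216 and 0.0195). Against the markers without homeostatic surface genes the differences in all libraries were 0.50, 0.31 and 0.38 (exact permutation p = 0.000583, 0.000583 and 0.00291). A change of the markers averaged moves the difference of every member by the same amount, here upwards. Cyba, for example, went from -0.06 to 0.03. The larger sizes therefore follow from the choice of markers and say nothing further about these members. The 3 markers that changed least of the 17 tested were P2ry12 at -0.28 (limma adjusted p = 0.0927), P2ry13 at -0.36 and Tmem119 at -0.08. Rac2 changed by -0.35 and Ncf4 by -0.29. The differences therefore hold against the marker mean and not against each marker. Higher here means that the marker mean was lower by more than the member was. None of the 3 members was itself called as changed.

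**Figure D4:**
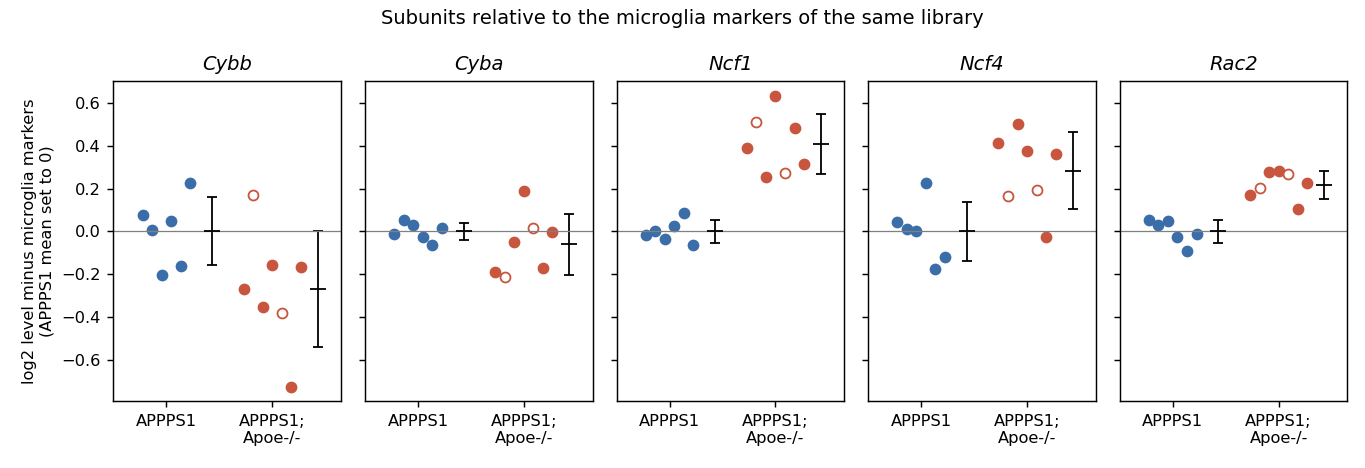
Log2(RPKM + 0.5) of each member minus the mean of the microglia markers in the same library, with the APPPS1 mean set to 0; blue is APPPS1 (n = 6), red APPPS1;Apoe-/- (n = 7), open circles the 2 low-App libraries, bars the mean and SD. All red points of Ncf1 and Rac2 lie above all blue ones, with mean differences of 0.41 and 0.22, and those of Cyba scatter around 0.

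Markers of other cells that carry the oxidase were examined in the same libraries. Of 10 neutrophil markers with a column, 3 reached the test and 0 were called. The summed level of the neutrophil markers was 1.04 to 3.52 RPKM in APPPS1 and 1.70 to 10.9 in APPPS1;Apoe-/-. What part of the oxidase transcripts comes from such cells was not tested. All 6 monocyte markers and all 9 lymphocyte markers were under 1 RPKM in all libraries. Of 4 border macrophage markers tested, 0 were lower and 1, the scavenger receptor Stab1, was higher by 0.26 (limma adjusted p = 0.0477), with 0 called under the alignments covariate. Over all genes tested 4.74% were called lower and 3.48% higher.

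The members tracked one another within groups to differing degrees. With each group's mean taken off, Pearson's r over 13 libraries was 0.97 for Cyba and Rac2, 0.92 for Ncf4 and Rac2 and 0.88 for Ncf1 and Rac2, but 0.60 for Cybb and Cyba. Without the 2 low-App libraries (n = 11) these were 0.89, 0.50, 0.65 and 0.51, and Ncf1 with Ncf4 dropped from 0.76 to 0.08. Points share a library and its depth, so these are descriptions. The genes closest to each member by the same measure were Ctss, Ly86 and Cd53 for Rac2 (0.98, 0.97 and 0.97), and Rps6ka1, Cd14 and Cd53 for Cyba (0.97, 0.95 and 0.95). For Ncf1 they were Unc93b1, Ccnl1 and Cd53 (0.95, 0.94 and 0.93), and for Ncf4 App, Ctsz and C5ar1 (0.95, 0.94 and 0.93). Over all 13 libraries Cybb had no gene as close: Itgb5, Klf3 and Lrch3 reached 0.89, 0.85 and 0.84. Without the 2 low-App libraries these 3 were 0.78, 0.81 and 0.82. The genes named for the other members then ranged from 0.61 (Ctsz with Ncf4) to 0.87 (Cd53 with Ncf1). Cybb did not stand apart there. Cybb rests on an estimated 8 to 103 reads in the knockout libraries, and whether this lowers its r was not tested. The r of Ncf4 with App was 0.70 without the low-App libraries, which define the low end of App.

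Genes that switch the oxidase on were mostly not called, as were most of all genes tested (4.74% called lower and 3.48% higher). Of 23 tested oxidase activation genes (kinases, exchange factors, integrins and receptors upstream of the complex), 2 were lower and 0 higher, with a median log2 change of -0.13. Both encode chains of the integrin Mac-1, through which phagocytes bind complement-coated targets. Itgb2 ranged from 9.90 to 12.1 RPKM in APPPS1 and from 3.45 to 8.08 in APPPS1;Apoe-/-, without overlap (log2 change -0.77, limma adjusted p = 0.00794). Itgam changed by -0.47 (limma adjusted p = 0.0431), and by -0.28 without the low-App libraries, where it did not pass (adjusted p = 0.0895). With the alignments covariate 0 of the 23 were called, with Itgb2 at -0.72 (limma adjusted p = 0.0961) and Itgam at -0.39 (limma adjusted p = 0.261).

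Most genes around the substrate and product of the enzyme were not called, as held for all genes tested (4.74% called lower and 3.48% higher). Of 15 NADPH supply genes 2 were lower and 0 higher (median 0.01). Nnt, the mitochondrial transhydrogenase, ranged from 4.15 to 5.65 RPKM in APPPS1 and from 3.03 to 3.66 in APPPS1;Apoe-/- (log2 change -0.50, limma adjusted p = 0.000362), and Pgd, a pentose phosphate enzyme, changed by -0.18 (limma adjusted p = 0.0321). Pgd did not pass without the low-App libraries (limma adjusted p = 0.0564), with the alignments covariate (0.308) or with median centring (0.0702), nor with some single libraries left out (up to 0.0711). Of 29 antioxidant genes 1 was lower and 0 higher (median -0.10): Gpx1, a peroxidase of hydrogen peroxide, went from 93.0 ± 5.14 RPKM (SD, n = 6) to 78.3 ± 8.24 (SD, n = 7), a log2 change of -0.25 (limma adjusted p = 0.0286). Gpx1 did not pass with the alignments covariate (limma adjusted p = 0.120) or with some single libraries left out (up to 0.0615).

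Of 10 other radical-forming enzymes tested, 2 were lower and 1 higher (median 0.05), against 4.74% lower and 3.48% higher over all genes tested. Alox5, the lipoxygenase of leukotriene synthesis, went from 1.08 ± 0.107 RPKM (SD, n = 6) to 0.476 ± 0.097 (SD, n = 7), without overlap (log2 change -0.69, limma adjusted p = 0.00012). Nos1, the neuronal nitric oxide synthase, changed by -0.33 (limma adjusted p = 0.00817), and did not pass with the alignments covariate (-0.31, limma adjusted p = 0.102). Xdh, xanthine dehydrogenase, went the other way, from 0.943 to 1.78 RPKM in APPPS1 up to 2.18 to 3.76 in APPPS1;Apoe-/-, with every knockout library higher (log2 change 0.72, limma adjusted p = 0.00378).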

How the data were processed

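The deposited table holds gene RPKM values, reads scaled to transcript length and library size, and the count of alignments of each library, both made by the authors. The submitters' processing notes name Partek and mm10. The aligner, the annotation, the transcript lengths and the use of strand were not given in the sources used here. The labels' protocols name Trizol extraction and Clontech SMARTer.

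The members and gene lists were chosen with earlier results of these data known. Libraries were matched to groups by their labels. The 13343 genes averaging 0.5 RPKM or more were fitted on log2(RPKM + 0.5) with limma 3.58.1 (eBayes with trend; R 4.3.3), with genotype as the only term, and called at a Benjamini-Hochberg adjusted p under 0.05. RPKM is not a count, so no count model was used. P-values measure only the spread between these samples. Differences between members, and between members and the mean of 18 microglia markers, were compared by two-sided exact permutation tests over libraries in Python 3.11.15. Scripts were tested on simulated data.

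The text names the 5 members, the other oxidase genes, up to 4 called genes with the smallest adjusted p from each pathway list, and for each member the 3 genes outside the members with the highest within-group r among named genes of at least 1 RPKM. Apoe, App, Thy1 and the microglia markers could also be named, and Stab1 was chosen after its values were seen. Ncf4, Rac2 and Rac1 had no promoter entry. Some items are not reported here. Alternatives covered constant, filter, scaling, variance model, weights, covariates and left-out libraries.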

Additional observations from a re-analysis of the deposited data

Results flagged for a closer look

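APPPS1 replicate 5 stood apart from the other 5 libraries of its group for 2 members. Cyba was 43.5 RPKM there, with the next library at 39.5, and the gap was 0.655 of the range of the group, above the limit of 0.625 for 6 samples. Ncf1 was 3.32 RPKM there, with the next library at 2.71, and the gap was 0.642 of the range. Of 16 groups of values examined, 2 held such a library, and chance gives about 1 in 20. Leaving out each library in turn, this one included, kept Cyba called (limma adjusted p from 0.00394 to 0.0280) and left Ncf1 uncalled (limma adjusted p from 0.252 to 0.790).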

How the results depend on the processing

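The number of genes called, 1098, was 202 with the alignments covariate, 281 with it and without both low-App libraries (chosen after seeing the data), 677 without these libraries, 71 with the microglia marker mean as a covariate and 711 to 1594 with 1 library left out. Centring on library medians turned 633 lower and 465 higher calls into 531 and 701. Members called numbered 1 with the alignments covariate (Cyba -0.56) and 2 with it and without both low-App libraries. They numbered 1 at a filter of 1 RPKM, where Cybb is not tested, 0 with the microglia covariate, and 2 to 3 with 1 library left out. The microglia covariate gave Cybb -0.50, Cyba -0.0094, Ncf1 0.45, Ncf4 0.35, Rac2 0.18 and Itgam 0.086 (log2). Without both low-App libraries Ncf1 was 0.036, Cybb relative to markers -0.33 and Cybb minus Cyba -0.29.

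With 0.1 added, Cybb relative to markers was -0.76, Ncf4 relative to markers 0.26, Cybb minus Cyba -0.75 and Cyba minus Ncf4 -0.27. With nothing added these were -1.10, 0.22, -1.08 and -0.24. With 1 added, Cybb minus Cyba was 0.0455 and Ncf1 minus Rac2 0.18. Cyba relative to markers was 0.033 without homeostatic surface markers and 0.041 against the marker median. With 1 library left out, Rac2 ranged from -0.40 to -0.26, Rac1 from -0.011 to 0.035, Cybb relative to markers from -0.34 to -0.19, Cybb minus Cyba from -0.31 to -0.15 and Ncf1 minus Rac2 from 0.16 to 0.23. A change of the marker reference moves every member by the same amount. The cause of the other shifts was not tested. No paired analysis was possible because replicate numbers were given in accession order and pair no samples. Low read numbers limit Cybb and Ncf4.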
